A study of Rattus norvegicus with 11 samples.

Results

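GABA-A receptors are chloride channels built from alpha, beta and other subunits, and they carry most fast inhibition in the cortex. Many receptors that hold an alpha, a beta and a gamma subunit gather at synapses, where they answer brief pulses of GABA. Receptors that hold the delta subunit, mostly with Gabra4 in the forebrain, and many that hold Gabra5 lie outside synapses, where they answer the low GABA level between cells. The 7 subunit genes described here are Gabra2 and Gabra3 (alpha subunits of mostly synaptic receptors), Gabra4, Gabra5 and Gabrd (subunits of mostly extrasynaptic receptors), and the beta subunits Gabrb1 and Gabrb2, which join receptors of both kinds. They were found by the gene name that the array gives each probe. Of the 7 genes, 6 had a probe of that name, 1 probe each, among 41012 non-control probes. No probe was named Gabra2. A probe named LOC289606 carries the gene number that RefSeq assigns to Gabra2, so it is described beside the members but is not counted among them.

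RNA came from the medial prefrontal cortex of male rats aged 4 months and was measured on 1 array per rat. The heroin group was 6 rats that had self-administered heroin, and the yoked saline group was 5 control rats, whose saline infusions were timed by the intake of a heroin partner. Every rat then spent 14 days abstinent and was killed directly after an extinction session in which no drug was given, so abstinence and the extinction session were shared by both groups. The tissue was a block of cortex, and in such bulk RNA a change in the number of cells of a type and a change in RNA per cell cannot be told apart.

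The probes are shown first, because they decide which RNA each value stands for. Each is 60 bases long and is written in the sense of the mRNA. Positions are those given with the array for rat build rn3. The strand of all 6 member probes matched the strand of the gene in RefSeq (GRCr8). The exon that each probe falls in was not worked out here. The Gabra3 probe (chrX:158490096-158495925, minus strand) and the LOC289606 probe (chr14:39664187-39665243, plus strand) each span an intron, since their ends lie 5830 and 1057 bases apart. They are shown as a pair because, of the subunit probes examined here, each matched the other best. Base 1 of the Gabra3 probe aligned with base 7 of the LOC289606 probe, and capitals mark the 33 of 54 overlapping bases that are identical.
Gabra3: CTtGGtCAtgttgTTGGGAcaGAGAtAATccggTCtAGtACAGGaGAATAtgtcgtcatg
LOC289606: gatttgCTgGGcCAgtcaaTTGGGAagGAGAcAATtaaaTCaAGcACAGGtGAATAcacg

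The extrasynaptic alpha subunits were read by the probes below, at chr14:39124766-39124825 (plus strand) for Gabra4 and chr1:108922532-108922591 (minus strand) for Gabra5. The Gabra4 probe shared 31 bases with the probe of Gabra6 and the Gabra5 probe shared 25 with that of Gabrr2, the highest match of each among the subunit probes examined here.
Gabra4: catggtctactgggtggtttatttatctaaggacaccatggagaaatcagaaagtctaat
Gabra5: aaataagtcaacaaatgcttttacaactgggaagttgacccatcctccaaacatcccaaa

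Of the remaining member probes only the first 30 bases are shown, to identify them. They lie at chr14:38532824-38532883 (minus strand) for Gabrb1, chr10:27820323-27820382 (plus strand) for Gabrb2 and chr5:172213695-172213755 (minus strand) for Gabrd. No member probe shared more than 33 bases with any other subunit probe examined here in an alignment without gaps. Probes were compared only with probes, so these counts do not show whether a probe also binds the RNA of another subunit.
Gabrb1: caaggtaccagctctgtaagagttccatca
Gabrb2: ggcctatcctgtggtccatttcataacatt
Gabrd: attagttggcctgtccctgaagctgagcct

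None of the 5 member probes that could be tested changed between heroin and yoked saline rats by the thresholds used here, a limma p below 0.02 before adjustment together with 1.4-fold or more. Of all 25555 tested probes, 694 (2.72%) passed both thresholds, or 457 (1.79%) after quantile normalization, and none passed a Benjamini-Hochberg adjusted p of 0.05, the lowest adjusted p being 0.263. At an unadjusted p under 0.05, 1 of the 5 members (Gabrb1) was called, against 18.5% of all tested probes. That call was lost after quantile normalization, with scaling to the 75th percentile and with the methods' test, where no member stood under 0.05. It was also lost with the replicate number as a fixed block (limma p = 0.111, beside an exact permutation p of 0.0325 without the block). With the scan as a random block the call was kept, at a log2 change of 0.35. The remaining member with a probe, Gabrb2, was not tested because its signal was well above background on only 4 of 11 arrays.

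The direction of these changes depended on how the arrays were scaled. A signal is given below as a multiple of the median probe of its array, which is the scaling the study used. On that scale the median of all tested probes was itself 0.18 higher on the log2 scale in heroin rats, and 78.7% of all tested probes were higher. The 5 members were higher too, by 0.11 to 0.34 with a median of 0.21. After quantile normalization, which gives all arrays the same distribution of signals, the median over all probes was 0.01 and the members ranged from -0.07 to 0.13 with a median of -0.01. Gabra5 and Gabrb1 stayed above 0 in that setting and Gabra3, Gabra4 and Gabrd fell below it.

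**Figure D1:**
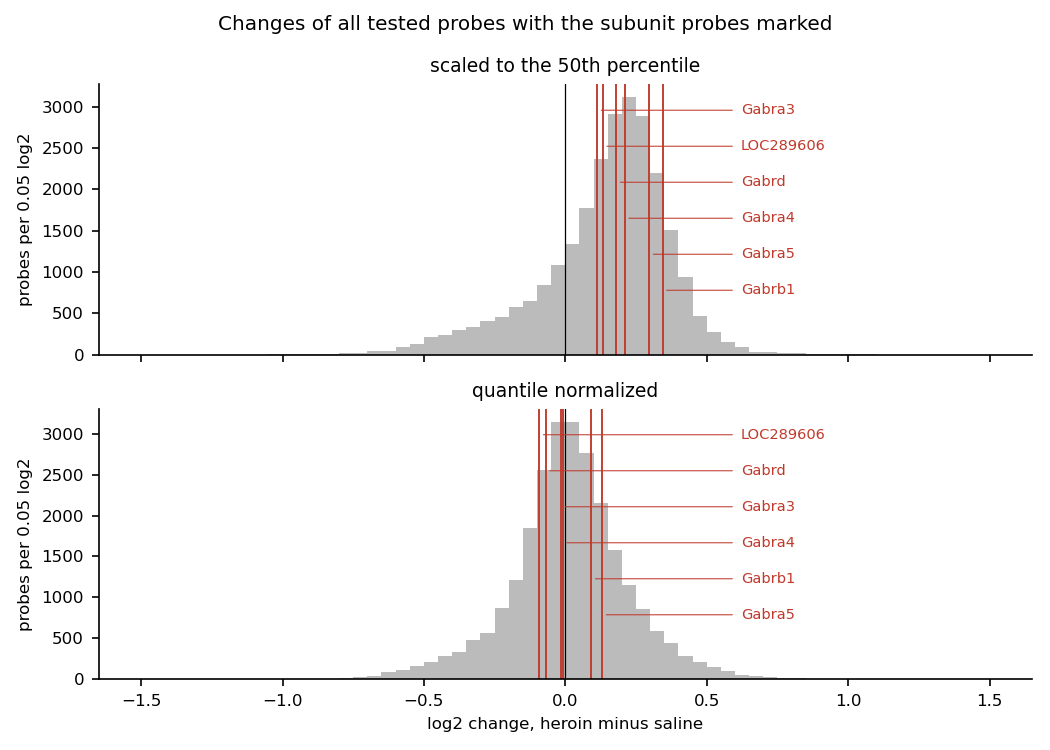
Number of tested probes (vertical axis, per 0.05 log2) by their log2 change, heroin minus saline (horizontal axis), with arrays scaled to their 50th percentile (top) or quantile normalized (bottom). Red lines mark the 5 tested members and LOC289606, which lie inside the bulk of all probes in both settings, from 0.11 to 0.34 at the top and from -0.09 to 0.13 at the bottom.

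Gabra3 encodes an alpha subunit of synaptic, benzodiazepine-sensitive receptors. Its signal in the heroin rats 1 to 6 was 2.34, 2.23, 2.45, 2.12, 1.32 and 1.69 array medians, and in the saline rats 2 to 6 it was 1.58, 1.85, 1.93, 1.84 and 1.99. Heroin rats 1 to 4 lay above every saline rat, while heroin rat 5 was the lowest of all 11, so the groups overlapped. The mean was 2.03 ± 0.433 in heroin (SD, n = 6) and 1.84 ± 0.155 in saline (SD, n = 5). The log2 change was 0.11 (SE 0.16, 95% interval -0.23 to 0.46, limma's adjusted p = 0.659). An exact permutation test over all divisions of the rats into groups of 6 and 5, two-sided, gave p = 0.506, against a limma p of 0.497 before adjustment.

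The LOC289606 probe has the gene number of Gabra2. Gabra2 encodes an alpha subunit of synaptic receptors, among them those on the first stretch of the axon of pyramidal neurons. The signal was 8.18, 9.43, 7.93, 7.82, 5.45 and 5.08 in heroin rats 1 to 6 and 6.61, 6.09, 6.79, 7.33 and 5.86 in saline rats 2 to 6. As for Gabra3, heroin rats 1 to 4 lay above every saline rat, and here heroin rats 5 and 6 lay below every one. The log2 change was 0.13 (SE 0.17, limma p = 0.436, exact permutation p = 0.450, adjusted p = 0.610).

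**Figure D2:**
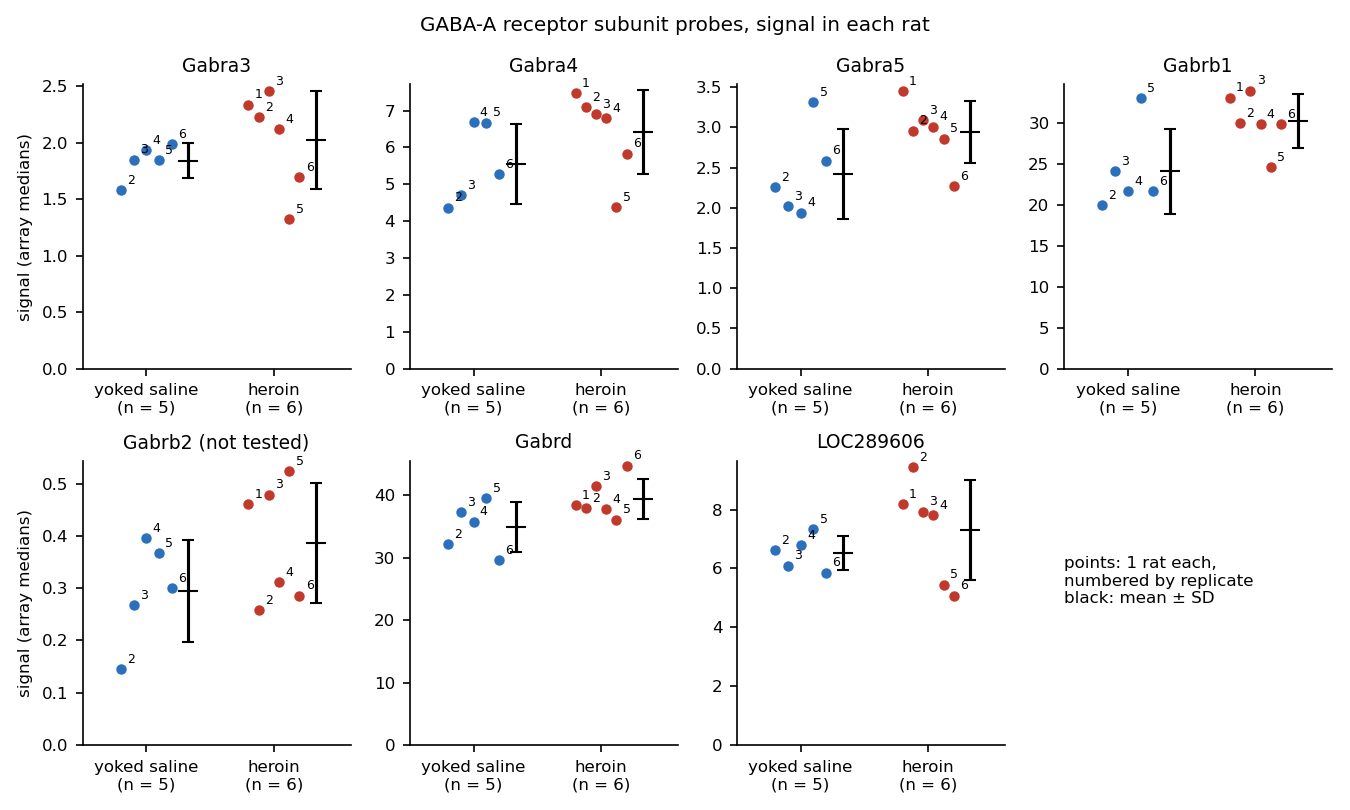
Signal of each member probe and of LOC289606 (vertical axis, in multiples of the array median) in 5 yoked saline and 6 heroin rats. Each point is 1 rat with its replicate number, and the black bar is the group mean with its SD. The groups overlap in every panel, and Gabrb2 (0.144 to 0.524) was near background.

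Gabra4 is the usual alpha partner of the delta subunit in forebrain receptors outside synapses. Its signal was 7.47, 7.10, 6.91, 6.79, 4.38 and 5.83 in heroin rats 1 to 6 and 4.37, 4.72, 6.69, 6.68 and 5.28 in saline rats 2 to 6. Again heroin rats 1 to 4 lay above every saline rat, but saline rats 4 and 5 lay just below heroin rat 4, and heroin rat 5 lay at the saline minimum. The mean was 6.41 ± 1.14 in heroin (SD, n = 6) and 5.55 ± 1.09 in saline (SD, n = 5). The log2 change of 0.21 (SE 0.17, 95% interval -0.15 to 0.57) had a limma p of 0.230, an exact permutation p of 0.232 and an adjusted p of 0.431.

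Gabra5 marks receptors that are mostly extrasynaptic in hippocampus and deep cortical layers. The signal was 3.46, 2.96, 3.09, 3.01, 2.86 and 2.27 in heroin rats 1 to 6 and 2.26, 2.02, 1.94, 3.31 and 2.59 in saline rats 2 to 6. Saline rats 2, 3 and 4 lay below every heroin rat, whereas saline rat 5 lay above every heroin rat except rat 1. The mean was 2.94 ± 0.388 in heroin (SD, n = 6) and 2.42 ± 0.556 in saline (SD, n = 5). The log2 change was 0.30 (SE 0.16, 95% interval -0.04 to 0.63, limma p = 0.0786, adjusted p = 0.292), and the exact permutation p was 0.0844. Without saline rat 5 the change was 0.42, which met the p threshold, unlike the fit with all rats, but is still under 1.4-fold. When arrays were weighted by how well they fitted the model, Gabra5 passed both thresholds at 0.50 (SE 0.12, limma's adjusted p = 0.0203). In that weighted fit 9.31% of all tested probes passed both thresholds and 30.8% had an adjusted p under 0.05. The other members stood there at 0.24 for Gabra3 (adjusted p = 0.153), 0.40 for Gabra4 (adjusted p = 0.0421), 0.45 for Gabrb1 (adjusted p = 0.0203) and 0.16 for Gabrd (adjusted p = 0.182), so 3 of the 5 had a limma adjusted p under 0.05. LOC289606 stood at 0.33 (adjusted p = 0.0548).

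Gabrd encodes the delta subunit, which takes the place of gamma in some extrasynaptic receptors, and these are sensitive to neurosteroids. Its signal was 38.4, 37.9, 41.4, 37.8, 36.1 and 44.7 in heroin rats 1 to 6 and 32.2, 37.2, 35.7, 39.5 and 29.6 in saline rats 2 to 6. Saline rats 2, 4 and 6 lay below every heroin rat, and saline rats 3 and 5 lay within the heroin range. The mean was 39.4 ± 3.13 in heroin (SD, n = 6) and 34.9 ± 3.98 in saline (SD, n = 5). The log2 change was 0.18 (SE 0.12, 95% interval -0.08 to 0.43, limma p = 0.154, adjusted p = 0.362), close to the median of all tested probes, and the exact permutation p was 0.0693.

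Gabrb1 encodes a beta subunit, which together with alpha forms the binding site for GABA. Its signal was 33.1, 29.96, 34.0, 29.9, 24.6 and 29.9 in heroin rats 1 to 6 and 19.9, 24.1, 21.7, 33.1 and 21.7 in saline rats 2 to 6. All saline rats but 5 lay below every heroin rat, and saline rat 5 lay at the level of heroin rat 1. The mean was 30.2 ± 3.30 in heroin (SD, n = 6) and 24.1 ± 5.24 in saline (SD, n = 5). The log2 change was 0.34 (SE 0.15, 95% interval 0.03 to 0.66), with a limma p of 0.0332, an adjusted p of 0.263 and an exact permutation p of 0.0325. After quantile normalization it was 0.09 (95% interval -0.13 to 0.31, limma p = 0.389, exact permutation p = 0.314).

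Gabrb2 encodes a beta subunit that is common in cortical receptors. Its probe was well above background in 3 of 6 heroin rats and 1 of 5 saline rats. The signal ran from 0.258 to 0.524 array medians in heroin and from 0.144 to 0.395 in saline, on average 1.37 times the lowest signal scored as well above background on the same array. No fold change is given for values this close to background. None of the 7 probes, LOC289606 included, was saturated on any array.

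How tightly these data limit a change is given by the intervals, here those of the fit without a block. After quantile normalization the 95% intervals of the 5 tested members lay between 0.798-fold and 1.35-fold, within 1.4-fold in either direction. With the study's scaling the upper ends were 1.37-fold for Gabra3, 1.35-fold for Gabrd, 1.48-fold for Gabra4, 1.55-fold for Gabra5 and 1.58-fold for Gabrb1. A rise of 1.4-fold in Gabra4, Gabra5 or Gabrb1 therefore lay inside the interval in that scaling and outside it after quantile normalization. With the replicate number as a fixed block and the study's scaling, the SE of every tested member was larger. For Gabrd it was 0.17 against 0.12, so the intervals of that fit are wider than those given here.

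**Figure D3:**
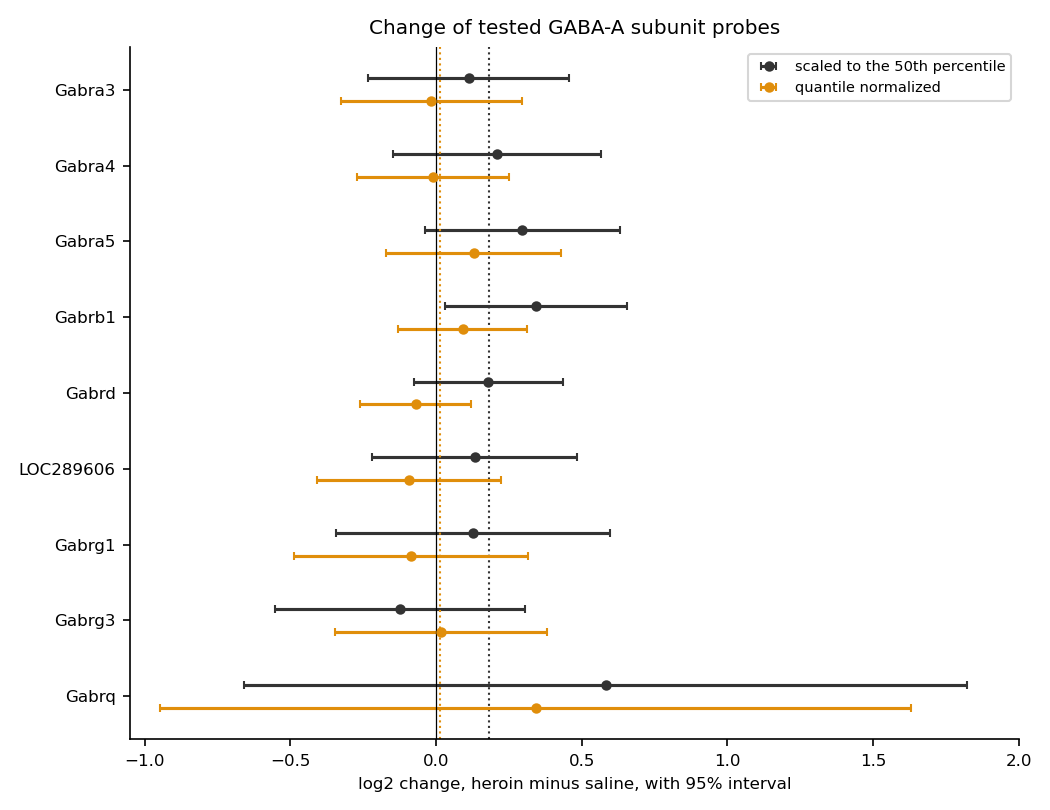
Log2 change, heroin minus saline, with 95% intervals (horizontal axis) for the 5 tested members, LOC289606, Gabrg1, Gabrg3 and Gabrq, scaled to the 50th percentile (black) or quantile normalized (orange). Dotted lines mark the median of all tested probes in each setting (0.18 and 0.01), and each interval but that of Gabrb1 with the study's scaling includes 0.

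The arrays were scanned in batches that held both groups. The heroin and saline rats with the same replicate number (2 to 6) shared a scan, and heroin rat 1 had no saline partner. Within a scan the saline rat was always at array position 3 and the heroin rat at position 4, so position and group cannot be told apart. In the scan of the replicate 5 rats all 5 tested members and LOC289606 were lower in the heroin rat, by up to 0.61 on the log2 scale for Gabra4. In the scans of replicates 2, 3 and 4 they were all higher in the heroin rat. Gabra4, Gabrb1 and Gabrd were higher in the heroin rat in 4 of 5 scans, and Gabra3, Gabra5 and LOC289606 in 3. After quantile normalization the counts were 2 of 5 scans for Gabra4, Gabrd and LOC289606, 3 for Gabra3 and Gabra5, and 4 for Gabrb1. Gabrd was then lower in the heroin rat in the scans of replicates 2, 3 and 4 (-0.15, -0.19 and -0.07) and higher in those of replicates 5 and 6 (0.04 and 0.11). The replicate number groups the rats as the scan does. With it as a fixed block the log2 changes were 0.06 for Gabra3 (SE 0.19), 0.16 for Gabra4 (SE 0.20), 0.25 for Gabra5 (SE 0.19), 0.32 for Gabrb1 (SE 0.19) and 0.19 for Gabrd (SE 0.17). With the scan as a random block they were 0.12, 0.21, 0.30, 0.35 and 0.18, in the same order. No member passed both thresholds in either fit.

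**Figure D4:**
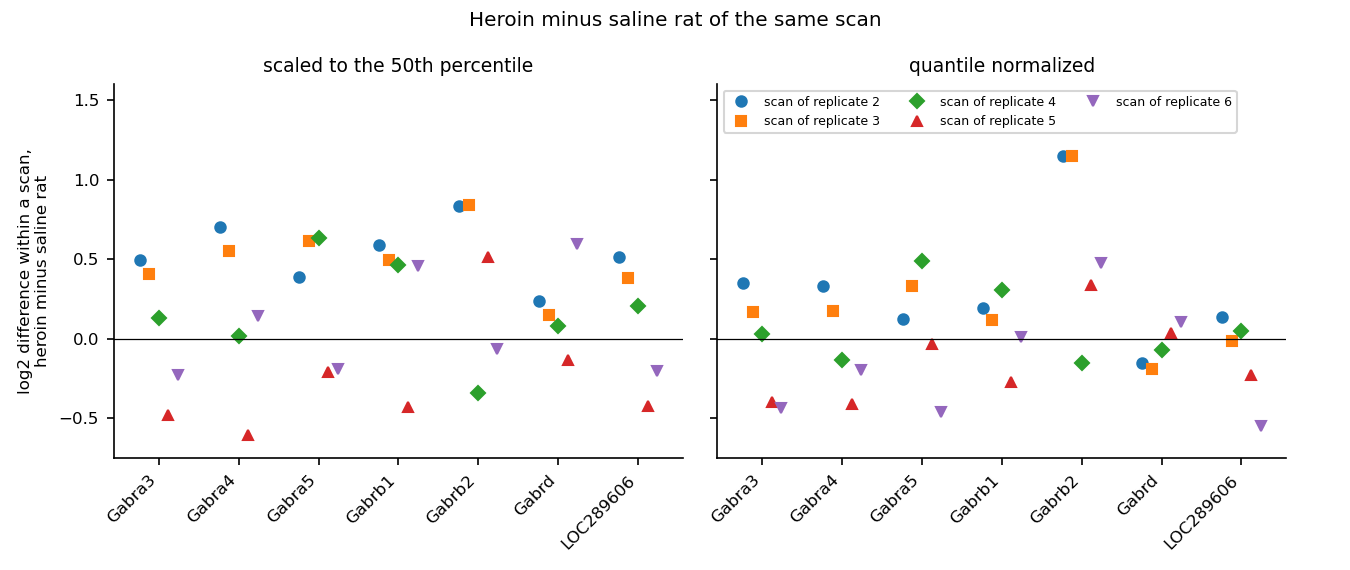
Log2 difference between the heroin and the saline rat of the same scan (vertical axis) for each member probe and LOC289606, scaled to the 50th percentile (left) or quantile normalized (right). Each marker is 1 of 5 scans, and the scan of replicate 5 is below 0 for every probe at the left but Gabrb2, which was not tested.

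Synaptic and extrasynaptic subunits were set against each other within each rat, as the mean log2 signal of Gabra4, Gabra5 and Gabrd minus that of Gabra3. The size of this difference depends on the probes, so only its shift between groups is read. It was 2.18 ± 0.21 in heroin (SD, n = 6) and 2.06 ± 0.19 in saline (SD, n = 5), a shift of 0.12. Heroin rats 1 to 4 ran from 1.97 to 2.11, around the saline mean, and rats 5 and 6 stood at 2.54 and 2.31. Rats 5 and 6 also had the lowest Gabra3 signal of the heroin rats (1.32 and 1.69). The heroin rats ran from 1.97 to 2.54 and the saline rats from 1.90 to 2.37, so the groups overlapped over most of their range. The shift was smaller than the spread within groups (SD 0.20). Within scans it was higher in the heroin rat in 4 of 5, from -0.05 to 0.41. After quantile normalization the shift was 0.03, higher in 3 of 5 scans. In that setting heroin rats 1 to 4 (1.94 to 2.06) lay below the saline mean of 2.11. With LOC289606 counted as Gabra2 the shift was 0.11, from 1.26 ± 0.21 in heroin and 1.15 ± 0.13 in saline. Heroin rats 1 to 4 then ran from 1.02 to 1.19. No p is given for this score, since its members were chosen with results of these data known.

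**Figure D5:**
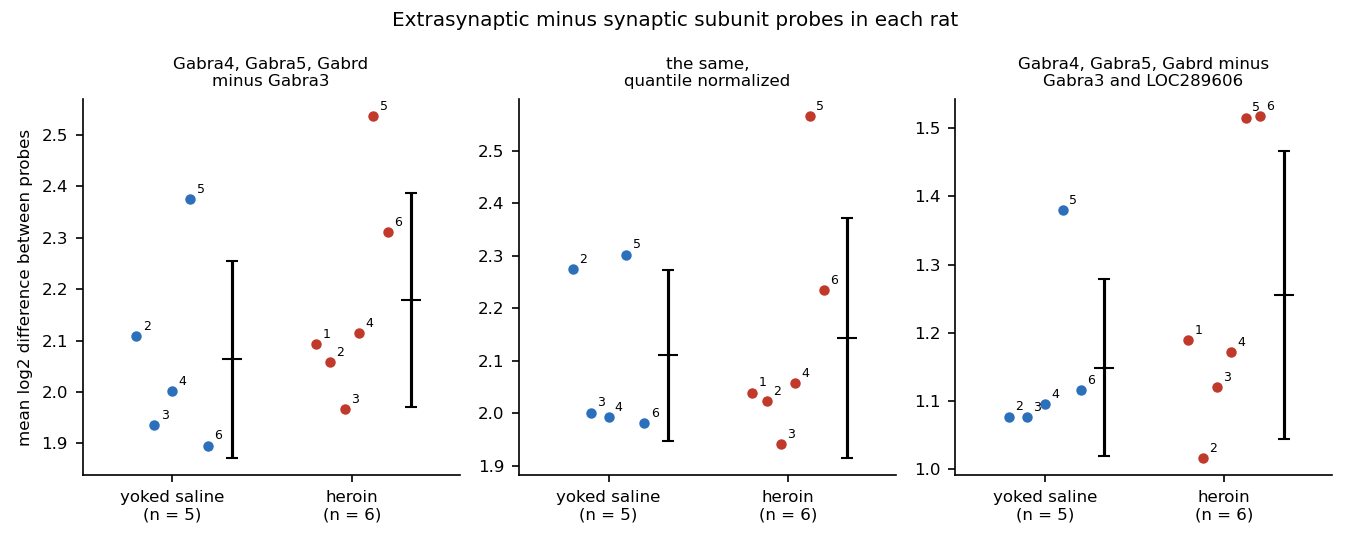
Mean log2 signal of the extrasynaptic subunit probes minus that of the synaptic ones (vertical axis, cut to the range of the data) in each rat, with group mean and SD in black, for Gabra3 alone (left), after quantile normalization (middle) and with LOC289606 added (right). The groups overlap in each panel, and the highest heroin values come from rats 5 and 6.

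The members moved together across rats to a degree that also depended on scaling. Over the 11 rats, the 15 pairs among the 5 tested members and LOC289606 had Pearson r from 0.12 to 0.81, all positive. After quantile normalization r ran from -0.58 to 0.83 and was positive for 10 of 15 pairs. The pair Gabra3 and Gabra4 kept the highest value in both settings (0.81 and 0.83). Gabrb1 and Gabrd went from 0.78 to -0.09, and Gabra4 and Gabrd from 0.48 to -0.58. These points share their arrays and include the difference between groups, so r is given as a description with no p.

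The named genes whose pattern over the 11 rats was most like that of each subunit came from many functions. For Gabra3 they were Yy1 (r = 0.96), a zinc finger transcription factor, and Pcdh17 (0.95), a protocadherin. For Gabra4 they were Usp9x (0.97), a deubiquitinase, and Ppil4 (0.96). For Gabra5 they were Gyg1 (0.95), the primer protein of glycogen synthesis, and Lsm1 (0.94), of mRNA decay. For Gabrb1 they were Dpp8 (0.98), a dipeptidyl peptidase, and Ddx18 (0.97), an RNA helicase. For Gabrd they were Chchd2 (0.98) and Fis1 (0.97), both proteins of mitochondria. For LOC289606 they were Igfbp5 (0.94) and Celsr2 (0.94). Each is the highest of a large number of values, so it is high by choice, and the median r over all named probes was 0.30 for Gabra3, 0.46 for Gabra4, 0.37 for Gabra5, 0.54 for Gabrb1 and 0.43 for Gabrd. After quantile normalization these medians lay between -0.01 and 0.10, while r with the genes named for the 5 members was 0.74 to 0.93. Spearman's rho for those genes was 0.83 to 0.98, and r without the 2 rats farthest from the median was 0.90 to 0.98.

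Of the other subunit genes of the GABA-A family, 9 were examined. All 9 had a probe, 3 of them (Gabrg1, Gabrg3 and Gabrq) were tested, and none of the 3 passed both thresholds. Gabrg1 and Gabrg3 encode gamma subunits, and their log2 changes were 0.13 (SE 0.22) and -0.12 (SE 0.20). After quantile normalization they stood at -0.09 and 0.02, so both signs turned. The Gabrg3 signal was near background, on average 1.93 times the lowest signal scored as well above background on the same array. Gabrq, the theta subunit, had a wide spread, from 10.1 to 85.7 array medians in heroin rats and from 8.67 to 77.2 in saline rats. Its highest values were those of heroin rat 5 and saline rat 5, which shared a scan, and its log2 change was 0.58 with an SE of 0.58. Probes of Gabra6, Gabre, Gabrp, Gabrr1, Gabrr2 and Gabrr3 were not well above background on all arrays and were not tested. The probes of Gabrr1 and of Gabre (A_44_P308956) were well above background on none.

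GABA-A subunit genes lie in clusters on a few chromosomes. On chromosome 14 the probes of Gabrb1, Gabra4, LOC289606 and Gabrg1 lie within 1.42 Mb, and their log2 changes ran from 0.13 to 0.34, or from -0.09 to 0.09 after quantile normalization. On chromosome 1 the probes of Gabrg3 and Gabra5 lie within 0.655 Mb and stood at -0.12 and 0.30, or 0.02 and 0.13 after quantile normalization. Of this pair, Gabrg3 was near background. On the X chromosome Gabra3 and Gabrq, within 0.503 Mb with Gabre, stood at 0.11 and 0.58, or -0.02 and 0.34.

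A wider list of 38 genes of the GABA synapse includes those 9 subunits. Of these, 36 had a probe and 29 were tested, and none passed both thresholds. Their median log2 change was 0.24 against 0.18 for all tested probes, and 0.02 against 0.01 after quantile normalization. At an unadjusted p under 0.05 stood 8 of 29, against 18.5% of all probes. In 1 of the 29, Gabbr1, a GABA-B receptor subunit, the groups did not overlap, as in 1.78% of all tested probes. The 8 genes of GABA synthesis, transport and chloride balance had a median change of 0.23, the 14 tested genes of receptor anchoring and trafficking 0.25, the 2 tested genes of neurosteroid and endozepine ligands 0.23, and the 2 GABA-B receptor genes 0.22. After quantile normalization these 4 medians were 0.02, 0.01, 0.01 and -0.03.

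Outside the receptor subunits, the genes of that list with the smallest p were Ubqln1, Slc12a2 and Zdhhc3. Ubqln1, a ubiquilin that binds GABA-A receptor subunits, stood at 0.39 on the log2 scale (limma's adjusted p = 0.263). Slc12a2, the transporter that loads neurons with chloride, stood at 0.53 (adjusted p = 0.263), above 1.4-fold but short of the p threshold. Zdhhc3, an enzyme that adds palmitate to the gamma subunit, stood at 0.33 (adjusted p = 0.263). After quantile normalization the changes were 0.15, 0.40 and 0.20.

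Markers of the cells in the block were measured beside these results. The summed signal of 6 interneuron markers ran from 352 to 459 array medians in heroin rats and from 277 to 383 in saline rats. Of these, Vip passed both thresholds, at 0.49 on the log2 scale (exact permutation p = 0.00433, adjusted p = 0.263), and it stood at 0.25 after quantile normalization. In that setting Gad1 stood at 0.17, and Gad2 (-0.13), Slc32a1 (-0.06), Pvalb (-0.08) and Sst (-0.03) lay below 0. The sum of 5 oligodendrocyte markers ran from 343 to 860 in heroin and from 287 to 907 in saline, and that of 5 astrocyte markers from 388 to 519 and from 317 to 484. The 3 pyramidal neuron markers with a probe summed to 20.7 to 47.7 in heroin and 16.9 to 34.0 in saline, and each was detected on all arrays. Those of 5 striatal markers ran from 19.8 to 28.0 and from 17.3 to 37.3, those of 2 thalamic markers from 12.5 to 20.6 and from 10.3 to 14.4. Microglia (5 markers), endothelium (4) and blood (2) ran from 37.0 to 94.0, 46.1 to 72.5 and 6.94 to 20.2 in heroin, and from 41.1 to 59.7, 31.4 to 65.8 and 7.53 to 20.3 in saline. These sums are on the study's scaling, and the median log2 change of a list moved with it. It went from 0.20 to -0.05 for interneurons, from 0.31 to 0.15 for pyramidal neurons, from 0.21 to -0.03 for astrocytes and from -0.01 to -0.25 for oligodendrocytes when arrays were quantile normalized. It went from 0.20 to -0.03 for microglia, from 0.10 to -0.15 for endothelium, from 0.11 to -0.10 for blood and from -0.06 to -0.26 for striatal markers, and the 1 tested thalamic marker, Prkcd, went from 0.28 to 0.04. Ranges of the groups overlapped for every list, and the part of cell makeup in the subunit values was not tested.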

How the data were processed

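Total RNA was amplified, labelled with Cy3 and hybridised to Agilent rat whole genome arrays of 60-base probes, 1 array per rat. For each spot the authors deposited an intensity from Feature Extraction 9.5.1.1 (the version in the headers), corrected for background and spatial trend but not scaled between arrays. Their second deposited table holds a ratio per probe and rat, relative to the 50th percentile of the array and the median of the gene, and served as an alternative. Array medians ran from 42.7 to 78.3 in heroin and from 58.0 to 83.2 in saline. The number of arrays limits the precision.

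Control spots and flagged spots (non-uniform or outliers) were dropped. Signals below 5 were set to 5, log2 was taken, spots of a probe were averaged, and the array's 50th percentile over non-control probes was subtracted. A probe was tested if at least 0.5 of its spots were well above background on all 11 arrays (25587 probes) and it had a value in at least 2 rats per group (25555 probes). Groups were compared with limma 3.58.1 (R 4.3.3) by two-sided tests, and p-values were adjusted over all tested probes by the Benjamini-Hochberg method. The p and fold thresholds are those of the study's methods, with limma in place of their test. Single probes were also tested by exact permutation over every division of the rats (smallest possible p 0.00216). The fits were tested on simulated data.

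Members and lists were chosen with earlier results of these data known. Named are all member probes, the other GABA-A subunits examined, from the rest of the list genes past both thresholds or otherwise the 3 with the smallest p, and the 2 most correlated named genes per tested member. List genes were matched by array name, accession or gene number, and a gene's lead probe is its brightest. Some genes of the list are not reported here. LOC289606 was added after its gene number was seen. Nothing in the labels says how rats were housed or bred, or whether replicate numbers mark yoked partners, so p-values measure only the spread between these rats. Samples were grouped by their titles. Alternatives were another percentile (75), quantile normalization, normexp on the raw spot signals (offset 50), a floor after scaling, the deposited ratios, keeping flagged spots, testing undetected probes too, the methods' t-test (unequal variances), a moderated test with intensity trend and robust variance, array weights, blocks for the replicate number or for the scan, the mean of a gene's probes, and leaving out each rat. Quantile normalization with the replicate block, and LOC289606 counted as Gabra2, were chosen after seeing the data.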

Additional observations from a re-analysis of the deposited data

How the results depend on the processing

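The number of member probes past both thresholds was 0 in the reported fit and in every alternative but array weights, where it was 1 (Gabra5, at a log2 change of 0.50). Array weights ran from 0.260 for heroin rat 6 to 3.45 for heroin rat 1, and the next lowest was 0.342 for saline rat 5. Heroin rat 1 had the highest Gabra5 signal (3.46). Heroin rat 6 had the lowest of the heroin rats (2.27) and saline rat 5 the highest of the saline rats (3.31). The signs of 3 members and LOC289606 turned with scaling. To the 75th percentile, Gabra3 was -0.11, Gabra4 -0.0081, Gabrd -0.038 and LOC289606 -0.086. After quantile normalization they were -0.016, -0.0096, -0.070 and -0.092. With quantile normalization and the replicate block together they were -0.058, -0.047, -0.055 and -0.12. With the study's scaling, leaving out 1 rat at a time left the median of all tested probes between 0.14 and 0.24. Every member's sign was kept in those fits, with log2 changes from 0.05 to 0.23 for Gabra3, 0.13 to 0.32 for Gabra4, 0.22 to 0.42 for Gabra5, 0.28 to 0.46 for Gabrb1 and 0.12 to 0.23 for Gabrd, and LOC289606 from 0.05 to 0.23. The highest of these, for Gabrb1 without saline rat 5, met the p threshold but is still under 1.4-fold. The p threshold was also met by Gabra5 without saline rat 5 (0.42) and by Gabrb1 without heroin rat 5 (0.40). In no other fit with 1 rat left out did a member meet it, so for these 2 genes it depended on single rats. Each member has 1 probe, so averaging probes could not change it. The number of other GABA synapse genes past both thresholds was 0, became 1 with the trend and robust options (Slc12a2) and 1 with array weights (Hap1), and lay between 0 and 3 when 1 rat was left out. The 3 were Gad1, Slc12a2 and Hap1, without saline rat 5. Slc12a2 passed without saline rat 3, heroin rat 4 or heroin rat 5. The shift between extrasynaptic and synaptic subunits moved by less than the reported within-group SD of 0.20 in every alternative run, ranging from 0.03 after quantile normalization to 0.19 without saline rat 5. The cause of these differences was not tested. In the fit with the replicate block no member passed both thresholds, and Gabrb1 stood at 0.32. Deviations from the group mean in rats of the same number correlated between -0.24 and 0.38. Those in rats of different numbers correlated between -0.46 and 0.41. The ranges overlap, so this comparison cannot tell whether the numbers mark pairs. Values near background, as for Gabrb2, have no usable fold change at this signal.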

Other observations

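Of the 14 subunit genes examined that have a strand in the RefSeq promoter table (GRCr8), 13 had all their probes on the strand of the gene, as the array's rn3 positions give it. The exception was Gabre, an epsilon subunit gene, whose pair of probes is placed on the opposite strand. They were well above background on 0 and 5 of 11 arrays. The builds differ, and which of them is right was not tested.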
